A study of Homo sapiens with 8 samples.

Results

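The transcripts described here are 294 long non-coding RNAs of human prostate cancer cells that gave signal on an expression microarray. They were chosen by name and by level. A gene entered if its symbol was LINC followed by digits or ended in -AS1, -AS2 or -AS3. Its probe set also had to reach a log2 value of 5 on at least 1 of the 4 arrays of cells without an shRNA virus. Of the 19775 genes that a probe set with 1 gene symbol represented, 1616 had such a name, and the 294 members are 18.2% of them. They comprise 92 LINC genes and 202 antisense genes, of which 195 end in -AS1, 7 in -AS2 and 0 in -AS3. Of the members, 290 were found in the human gene table, which lists 288 as long non-coding RNA and 2 as antisense RNA.

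The EMT group held 1 array each of PC3-EMT1, PC3-EMT12 and PC3-EMT14, mesenchymal cell populations recovered after PC3-Epi cells had shared a culture with human macrophages. Values of the EMT lines are given in that order throughout. PC3-Epi, the epithelial parent with 1 array, is a subpopulation of PC3, a prostate cancer line started from a bone metastasis, which carries luciferase and was selected for epithelial morphology. The sh4 group held PC3-EMT1 and PC3-EMT14 carrying a lentivirus with an shRNA against ZEB1, and the Scr group held PC3-EMT1 and PC3-EMT14 carrying a lentivirus with a scrambled shRNA, with 1 array per line in each group. All cells descend from PC3 and were grown in RPMI with fetal bovine serum. EMT is the epithelial to mesenchymal transition, in which carcinoma cells lose E-cadherin junctions and gain motility, and ZEB1 is a zinc finger repressor of epithelial genes. The arrays hold only 1 shRNA against ZEB1, 1 array stands for each line and condition, and the EMT lines share 1 parent, so the p-values reflect only how far these few arrays scatter, which may be technical.

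Long non-coding RNAs are transcripts that encode no protein product. LINC genes lie between protein-coding genes, whereas -AS genes carry the name of another gene, the sense partner, and most are read from the strand opposite it. Some act on the gene beside them, some bind microRNAs or proteins, and for many no function is known. As a class they are often expressed at low levels and in few tissues.

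The arrays of cells with an shRNA virus, called transduced here, and those without, called untransduced, were scaled apart. The array medians lay between 6.19 and 6.23 on the 4 transduced arrays and between 4.33 and 4.35 on the 4 untransduced ones, and the brightest of 27 bacterial control probe sets, which no human RNA should light, reached 6.00 and 4.56. Levels are therefore compared only within the transduced or within the untransduced arrays. Among the epithelial and mesenchymal markers, CDH1, EPCAM, ESRP1, ZEB1 and VIM followed the labels. KRT8 and KRT18, epithelial markers, were lower in each EMT line by less than 2-fold. FN1, a mesenchymal marker, did not follow, at 10.46, 12.37 and 11.69 in the EMT lines, against 11.88 in PC3-Epi. CDH1, which encodes E-cadherin, was at 3.07, 3.61 and 4.00 in the EMT lines, against 11.31 in PC3-Epi. ZEB1, the target of sh4, was at 9.12 and 9.01 in the sh4 arrays of PC3-EMT1 and PC3-EMT14, against 9.87 and 10.08 in their Scr arrays. Of the macrophage markers, CD14, CD163, CSF1R, PTPRC, LYZ, MRC1 and AIF1 all lay below 4.56 on every untransduced array. CD68, also listed, had no probe set with 1 gene symbol. On the transduced arrays CSF1R, at 6.71 to 6.79, and AIF1, at 6.18 to 6.28, lay above the control of 6.00, and the others lay below it.

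The promoters of 3 members that the results turn on are shown to place them in the genome. They come from RefSeq on GRCh38.p14, run 5′ to 3′ on the strand of the RNA, hold 250 bases before and 50 bases after the start site, and overlap no protein-coding gene of the gene table. LINC00261 (chr20:22578593-22578892, minus strand) had the largest difference between EMT lines and PC3-Epi, SBF2-AS1 (chr11:9758043-9758342, plus strand) passed the test in both EMT and sh4 comparisons, and PSMA3-AS1 (chr14:58298088-58298387, minus strand) was lower in EMT lines with each of 3 probe sets. Capitals mark the letters CACCTG on either strand, an E-box that ZEB1 can bind, and only the window of SBF2-AS1 holds them, as CAGGTG.
LINC00261: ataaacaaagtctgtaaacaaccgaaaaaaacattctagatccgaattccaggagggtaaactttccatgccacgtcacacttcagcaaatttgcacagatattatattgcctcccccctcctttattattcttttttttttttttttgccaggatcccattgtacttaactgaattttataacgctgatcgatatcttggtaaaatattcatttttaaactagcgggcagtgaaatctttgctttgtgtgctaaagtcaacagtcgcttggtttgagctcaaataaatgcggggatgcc
SBF2-AS1: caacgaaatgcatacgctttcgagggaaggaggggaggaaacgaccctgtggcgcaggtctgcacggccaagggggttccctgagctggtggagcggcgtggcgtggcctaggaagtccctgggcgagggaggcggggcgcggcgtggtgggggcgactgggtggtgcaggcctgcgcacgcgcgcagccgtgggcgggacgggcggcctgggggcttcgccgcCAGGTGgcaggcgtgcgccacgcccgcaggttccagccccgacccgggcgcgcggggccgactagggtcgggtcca
PSMA3-AS1: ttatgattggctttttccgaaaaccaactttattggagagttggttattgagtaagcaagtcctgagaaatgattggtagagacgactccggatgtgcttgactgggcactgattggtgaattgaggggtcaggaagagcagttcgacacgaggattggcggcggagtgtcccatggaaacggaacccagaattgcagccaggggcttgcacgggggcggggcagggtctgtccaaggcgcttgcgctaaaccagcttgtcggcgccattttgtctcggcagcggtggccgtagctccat

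Promoters were at hand for 224 members, without the windows on chromosome 8. CACCTG occurred on either strand in 51 of them (22.8%), beside 20.6% of all 27305 promoters in the table, and CCGTTA, the core of sites bound by OVO-type zinc finger factors, in 8 (3.57%), beside 3.15%. Among members that were higher in EMT lines 8 of 40 windows held CACCTG, and among members that were lower 4 of 25 did. These shares describe letters and not bound sites.

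Most members were dim. The median member mean over the untransduced arrays was 5.84 (range 3.99 to 11.40), and 212 of the 294 reached 5 on all 4 of them. The brightest bacterial control was exceeded on every untransduced array by 275 members. At the lower edge, DLG1-AS1 and PPP1R14B-AS1 just entered with highest values of 5.01, while SOCS2-AS1 at 4.99 and LINC02450 at 4.97 just missed. The choice also bears on direction, because 49 members reached 5 only in an EMT line, 11 only in PC3-Epi and 234 in both. With 3 EMT arrays against 1, the first kind had more chances to enter.

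The brightest members on the untransduced arrays were LOXL1-AS1 and OIP5-AS1. LOXL1-AS1, antisense to the gene of an oxidase that cross-links elastin and collagen, was at 11.11, 11.42 and 11.52 in the EMT lines, against 11.55 in PC3-Epi. OIP5-AS1, a conserved RNA that triggers the decay of miR-7 in mice, was at 10.46, 11.02 and 10.50 in the EMT lines, against 10.28 in PC3-Epi. Neither passed the test (log2 differences, EMT minus PC3-Epi, of -0.20 ± 0.20 and 0.38 ± 0.25, SE; limma adjusted p = 0.461 and 0.284). Next in level came FAM131B-AS2, which the gene table places on the same strand as FAM131B, LINC00973, EPB41L4A-AS1 and PRR34-AS1, with values between 9.52 and 10.32 on all untransduced arrays. Of these, EPB41L4A-AS1, which hosts a small nucleolar RNA, passed with 10.10, 9.96 and 10.10 in the EMT lines, against 9.52 in PC3-Epi (difference 0.53 ± 0.15, adjusted p = 0.0428), and it lost the call when PC3-EMT1 or PC3-EMT14 was left out. Over the 3 EMT lines the members varied about as much as other genes, with a median SD of 0.15 against 0.13 for all genes tested. SLC26A5-AS1, SSTR5-AS1, LINC00261 and LINC00342 varied most between those lines, with SDs of 1.21, 0.86, 0.73 and 0.72.

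In the mesenchymal lines some long non-coding RNAs were higher and others lower than in the epithelial parent, with a total share near that of all genes and with rises outnumbering falls. Of the 294 members, 53 were higher and 35 lower in EMT lines (limma, Benjamini-Hochberg adjusted p under 0.05 over all 11921 genes tested). The 88 called members are 29.9%, beside a background of 29.3% called over all genes tested. By direction, 18.0% of members were higher, beside 13.9% of all genes, and 11.9% were lower, beside 15.4%. Since the members were chosen by their values on these same arrays, these counts describe them and carry no test. Among the 234 members that reached 5 in both PC3-Epi and an EMT line, 38 (16.2%) were higher and 25 (10.7%) lower, beside 13.1% and 14.7% of the 10987 genes that met the same condition. The median member difference was 0.18, beside 0.07 for all genes tested, and 196 of 294 differences (66.67%) lay above 0, beside 55.37%. Of the 92 LINC members 16 were higher and 9 lower (17.4% and 9.78%), and of the 202 antisense members 37 were higher and 26 lower (18.3% and 12.9%). PC3-Epi is a single array, so its own spread was taken to be that of the EMT lines. Without PC3-EMT14, 45 of 288 members were called, beside 1841 of 11850 genes.

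**Figure D1:**
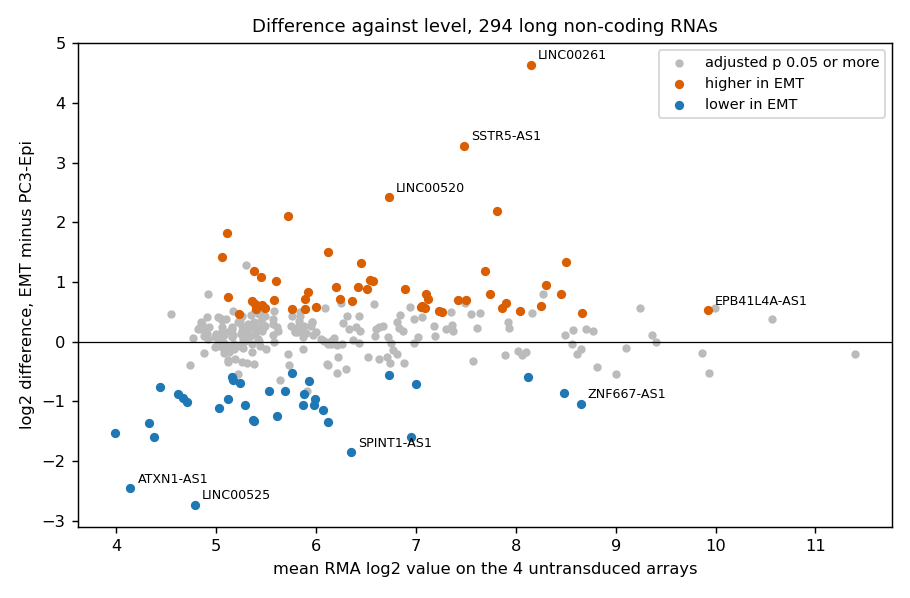
Log2 difference, EMT minus PC3-Epi (vertical axis), against the mean RMA log2 value on the 4 untransduced arrays (horizontal axis) for the 294 members, 1 point each. Orange points are the 53 members higher in EMT lines, blue points the 35 lower, and grey points did not pass the test; LINC00261 stands highest at 4.64, and LINC00525, under the bacterial controls in every EMT line, is drawn lowest at -2.73.

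A stricter rule asked that every EMT line be at least 2-fold above PC3-Epi, or every one at least 2-fold below it. It was met by 9 higher and 10 lower members, 6.46% in all, beside 7.85% of all genes tested (2.95% higher and 4.9% lower). All 19 also passed the limma test. In 3 of the rises the PC3-Epi value, and in 5 of the falls every EMT value, lay under the brightest bacterial control at 4.56, so that the low side of those differences is not a measured level. For such genes only a limit is given, written as at least N-fold, in which each value under the brightest bacterial control of its set of arrays was raised to that control, while the adjusted p is that of the measured values.

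**Figure D2:**
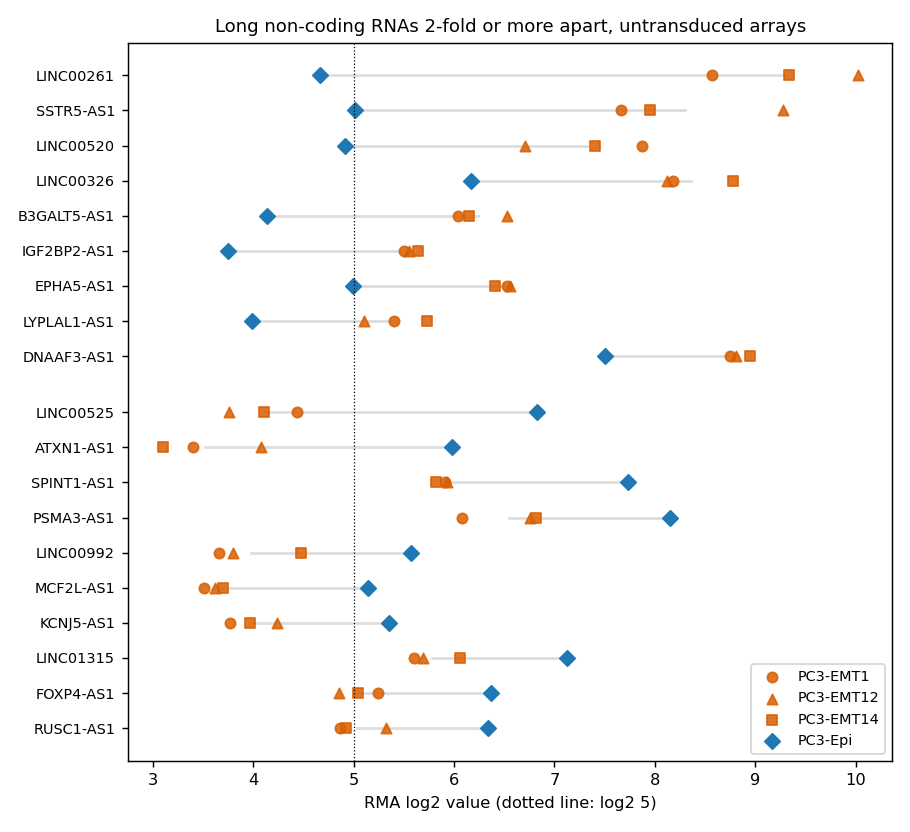
RMA log2 values (horizontal axis) of the 19 members past the 2-fold rule, 9 higher in the upper block and 10 lower in the lower block. Orange symbols are the 3 EMT lines, the blue diamond is PC3-Epi, the grey line joins their mean to PC3-Epi, and the EMT values lie on 1 side of PC3-Epi for every gene.

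LINC00261 had the largest rise. This RNA lies next to FOXA2, the gene of a forkhead pioneer factor of the endoderm. It has been linked to FOXA2 expression when human stem cells form endoderm. Its values were 8.57, 10.02 and 9.33 in the EMT lines, against 4.67 in PC3-Epi. The EMT lines stood far above PC3-Epi without overlap, although they differed widely among themselves. The difference was 4.64 ± 0.51 (SE, adjusted p = 0.00345), or 24.9-fold. FOXA2 itself, 2356 bases away in the gene table, was at 8.87, 9.12 and 9.11 in the EMT lines, against 6.37 in PC3-Epi (2.66 ± 0.17, adjusted p = 0.00064). The EMT lines lay much closer together in FOXA2 than in LINC00261, and all were above PC3-Epi in both.

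SSTR5-AS1 is antisense to SSTR5, the gene of a somatostatin receptor. It was at 7.66, 9.28 and 7.95 in the EMT lines, against 5.02 in PC3-Epi, so that every EMT line was higher and PC3-EMT12 stood out among them (3.28 ± 0.60, adjusted p = 0.0144, 9.71-fold). SSTR5 on the opposite strand stayed dim, at 3.98, 3.96 and 4.08 in EMT lines, against 3.72 in PC3-Epi, and did not enter the test.

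LINC00520, known in endothelium as an enhancer-derived RNA that supports nitric oxide synthase expression, was at 7.87, 6.71 and 7.41 in the 3 EMT lines, against 4.91 in PC3-Epi (2.41 ± 0.42, adjusted p = 0.0128, 5.33-fold). LINC00326 was at 8.19, 8.12 and 8.78 in EMT lines, against 6.17 in PC3-Epi (2.19 ± 0.28, adjusted p = 0.00535, 4.57-fold). The EMT lines did not overlap PC3-Epi in either gene. The probe set of LINC00520 is of a kind that can match several transcripts of related sequence, so part of its signal may come from another RNA. The same kind represents 29 of the 294 members, among them ZNF667-AS1 and FAM131B-AS2.

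The remaining rises were antisense RNAs. B3GALT5-AS1, which starts 118 bases from the glycosyltransferase gene B3GALT5 in a head to head arrangement, was at 6.04, 6.53 and 6.15 in EMT lines, against 4.14 in PC3-Epi (at least 3.2-fold higher, adjusted p = 0.00293). IGF2BP2-AS1, at the gene of an mRNA-binding protein, was at 5.50, 5.56 and 5.65 in EMT lines, against 3.75 in PC3-Epi (at least 2.01-fold higher, adjusted p = 0.00128). In both the EMT lines agreed closely and PC3-Epi lay within the range of the bacterial controls. Both rises rest on 1 probe set, since the other B3GALT5-AS1 probe set differed by 0.39 and the other 3 of IGF2BP2-AS1 by -0.08, 0.05 and 0.32. EPHA5-AS1, antisense to an ephrin receptor gene, was at 6.52, 6.56 and 6.41 in EMT lines, against 5.00 in PC3-Epi (1.5 ± 0.14, adjusted p = 0.00238, 2.82-fold). LYPLAL1-AS1 was at least 1.81-fold higher (adjusted p = 0.0132), and DNAAF3-AS1 rose by 1.33 ± 0.15 (adjusted p = 0.00394).

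Among the untransduced arrays, LINC00525 was above the bacterial controls only in PC3-Epi. It was at 4.43, 3.76 and 4.11 in the EMT lines, against 6.83 in PC3-Epi (at least 4.81-fold lower, adjusted p = 0.00237). ATXN1-AS1, antisense to the ataxin gene ATXN1, showed the same pattern at 3.40, 4.08 and 3.10 in EMT lines, against 5.98 in PC3-Epi (at least 2.67-fold lower, adjusted p = 0.00832), and its other probe set differed by -1.32. On the transduced arrays of these lines it lay between 6.19 and 6.94, above their bacterial control of 6.00. LINC00525 exceeded that control only in the sh4 array of PC3-EMT1, at 6.11. LINC00992, MCF2L-AS1 and KCNJ5-AS1 also lay under the brightest bacterial control in every untransduced EMT line, with values of 5.57, 5.14 and 5.36 in PC3-Epi.

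Falls with a measured level on both sides were led by SPINT1-AS1. Its sense partner SPINT1 encodes HAI-1, the surface inhibitor of matriptase and hepsin in epithelia, and the pair starts 476 bases apart on opposite strands. SPINT1-AS1 was at 5.91, 5.93 and 5.82 in EMT lines, against 7.73 in PC3-Epi (-1.85 ± 0.14, adjusted p = 0.00117, 3.6-fold lower). The EMT lines were nearly equal and all below PC3-Epi. The single probe set of SPINT1-AS1 is of a kind that can cross-hybridise.

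PSMA3-AS1, antisense to a gene of the proteasome core, was at 6.08, 6.75 and 6.82 in EMT lines, against 8.15 in PC3-Epi (-1.60 ± 0.31, adjusted p = 0.0165, 3.03-fold lower). Its other 2 probe sets, with differences of -1.49 and -1.97, gave the same direction. LINC01315, FOXP4-AS1 and RUSC1-AS1 fell by 1.34, 1.32 and 1.30 (adjusted p = 0.00982, 0.00753 and 0.0109). The sense partners of FOXP4-AS1 and RUSC1-AS1 did not pass, as FOXP4 differed by 0.14 (adjusted p = 0.526) and RUSC1 by 0.10 (adjusted p = 0.661).

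Of 9 members listed because they are known from tumour cells, 4 passed the test, beside the background of 29.3% of all genes. LINC00261, SSTR5-AS1 and EPB41L4A-AS1 were higher in EMT lines as given above, and ZNF667-AS1 was lower, at 8.10, 8.64 and 8.43 in EMT lines, against 9.42 in PC3-Epi (-1.03 ± 0.23, adjusted p = 0.0242). OIP5-AS1, LINC00467, LINC01116, AFAP1-AS1 and TMPO-AS1 did not pass, with differences between -0.39 and 0.56. ZEB1-AS1, which shares its promoter region with ZEB1, was not a member.

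Other long non-coding RNAs with names outside the rule were followed as a list of 48, of which 19 could be tested between EMT lines and PC3-Epi. TP53TG1 rose by 0.60, DLEU2, DLEU1 and DANCR fell by 0.95, 0.65 and 0.58, and MIR205HG was lower. The 5 called are 26.3%, beside the same background of 29.3%, and the median of the 19 was -0.42, beside 0.07. MIR205HG is the host transcript of miR-205, an epithelial microRNA that represses ZEB1. It was at 2.72, 2.96 and 2.47 in EMT lines, against 5.70 in PC3-Epi, the only cells with signal above the bacterial controls (at least 2.2-fold lower, adjusted p = 0.00099).

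The antisense members allow a comparison with the gene whose name they carry. Pairs were made by name, and for some of them the strands were not at hand. Of their 201 sense partners, 188 were on the array and 161 pairs could be tested between EMT lines and PC3-Epi. Of the partners, 18 rose and 32 fell (31.1%, beside 29.3% of all genes). Both genes passed in 24 pairs, with 10 pairs higher and 12 lower in both genes and 2 in opposite directions. In 28 pairs the antisense RNA alone passed, in 26 the partner alone, and in 83 neither. Across the 161 pairs the differences of antisense RNA and partner had a Pearson r of 0.39 and a Spearman rho of 0.28, given as a description, since both come from the same arrays and pairs are not replicates.

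In 3 pairs both strands met the 2-fold rule with the same sign. With EPHA5-AS1 went EPHA5, at 4.79, 5.59 and 5.29 in EMT lines, against 2.52 in PC3-Epi, which is under the bacterial controls (at least 1.58-fold higher, adjusted p = 0.00376). With B3GALT5-AS1 went B3GALT5, at 6.61, 6.90 and 6.65 in EMT lines, against 4.90 in PC3-Epi (1.82 ± 0.17, adjusted p = 0.00228). With SPINT1-AS1 fell SPINT1, at 8.54, 8.62 and 8.37 in EMT lines, against 9.65 in PC3-Epi (-1.14 ± 0.16, adjusted p = 0.00719). The start sites of each of these pairs lie within 528 bases of each other.

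The opposite pairs were DNAAF3-AS1 and MBNL1-AS1. DNAAF3-AS1 was at 8.75, 8.81 and 8.95 in EMT lines, against 7.5 in PC3-Epi, while DNAAF3, a gene for the assembly of ciliary dynein arms, was at 8.65, 8.54 and 8.42 in EMT lines, against 9.90 in PC3-Epi (-1.37 ± 0.16, adjusted p = 0.00402). All 3 EMT lines were thus above PC3-Epi in the antisense RNA and below it in DNAAF3. MBNL1-AS1 rose by 1.03 ± 0.15 (adjusted p = 0.00764) while MBNL1, a splicing regulator, fell by 0.55 ± 0.16 (adjusted p = 0.0498). EPHA1 and EPHA1-AS1 both lay under the bacterial controls in every EMT line and were at least 10.8-fold and at least 1.75-fold lower there. ITGB8, also under the controls in every EMT line, was at least 5.28-fold lower, while ITGB8-AS1 fell by 0.82 on the log2 scale. Whether each probe set reads only its own strand was not tested.

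**Figure D3:**
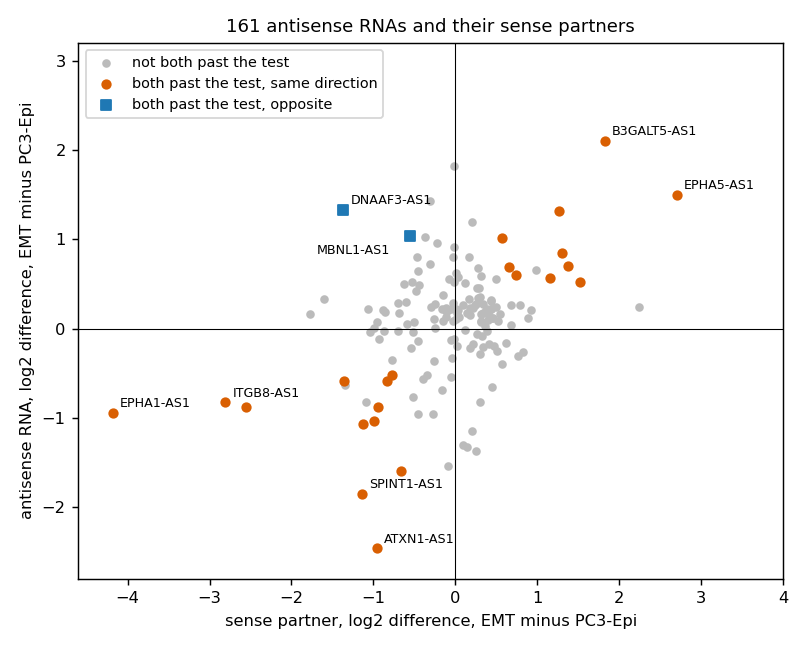
Log2 difference, EMT minus PC3-Epi, of the antisense RNA (vertical axis) against that of its sense partner (horizontal axis) for 161 pairs. Orange points are the 10 pairs higher and 12 pairs lower in both genes, blue squares the 2 pairs past the test in opposite directions, and grey points the other pairs.

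For the LINC members the nearest protein-coding gene on each side was taken instead. Of 104 such neighbours tested, 9 were higher and 26 lower in EMT lines (33.7%, beside 29.3% of all genes). FOXA2 beside LINC00261 had the largest rise among them. SNX19, 4140 bases from LINC02551, fell by 1.96 (adjusted p = 0.00104), and LINC02551, under the bacterial controls in 2 of the 3 EMT lines, was at least 1.83-fold lower (adjusted p = 0.0145). TNS3 and KTN1, the nearest tested genes to LINC00525 and LINC00520, lay 178890 and 96551 bases away, and both fell, by 0.99 and 0.76, the second against the direction of LINC00520.

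Few long non-coding RNAs passed the test when ZEB1 was silenced in the mesenchymal lines. SPINT1-AS1, LINC01111 and SBF2-AS1 were higher in sh4 than in Scr cells, and SSTR5-AS1, CARD8-AS1, LINC00342 and LINC00294 were lower. These 7 members are 2.38% of the 294, beside 1.18% of the 16661 genes tested. The 3 higher members are 1.02%, beside 0.69%, and the 4 lower members 1.36%, beside 0.486%. These shares are not from like sets. Members were chosen by level on the untransduced arrays, whereas the genes tested were filtered on the transduced arrays and include dimmer genes. With a filter at log2 7 for both, 11 of 192 members passed, beside 239 of 11149 genes. SSTR5-AS1 alone was at least 2-fold apart in both lines, 0.34% of members beside 0.408% of all genes either way and 0.132% lower. The median member difference was -0.04, beside 0.02, and of 641 further genes of the naming rule that were too dim to be members 0 passed. Before adjustment, 69 members (23.5%) had a limma p under 0.05, beside 18.6% of all genes tested.

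SSTR5-AS1 fell most. It was at 7.88 and 7.11 in the sh4 arrays of PC3-EMT1 and PC3-EMT14, against 8.91 and 8.84 in their Scr arrays, so that both sh4 arrays were below both Scr arrays (-1.38 ± 0.23, adjusted p = 0.0422, 2.61-fold lower). SSTR5 did not pass (0.09, adjusted p = 0.739). SPINT1-AS1 rose most, at 8.01 and 8.12 in sh4 arrays, against 7.06 and 6.64 in Scr arrays, again without overlap (1.22 ± 0.15, adjusted p = 0.0218, 2.32-fold). SPINT1 went with it, at 10.12 and 10.21 in sh4, against 9.06 and 9.17 in Scr (1.05 ± 0.13, adjusted p = 0.0207). This was the only one of 185 antisense and sense pairs in which both genes passed.

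**Figure D4:**
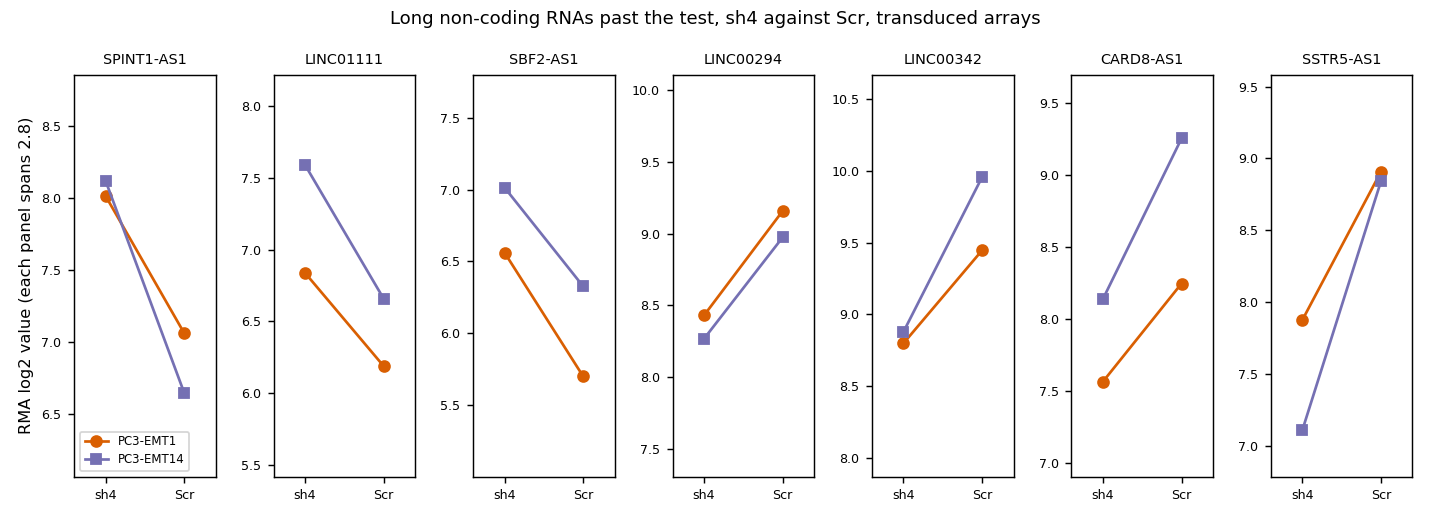
RMA log2 values (vertical axes, each spanning 2.8) of the 7 members past the test in the sh4 arrays (left) and Scr arrays (right) of PC3-EMT1 (circles) and PC3-EMT14 (squares). Lines join the arrays of 1 cell line, and both lines slope the same way in every panel.

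The other 5 members moved by less than 2-fold on average over both lines, although CARD8-AS1 and LINC00342 fell past 2-fold in PC3-EMT14. LINC01111 was at 6.84 and 7.59 in the sh4 arrays of PC3-EMT1 and PC3-EMT14, against 6.19 and 6.66 in Scr (0.79 ± 0.12, adjusted p = 0.0396), and SBF2-AS1 at 6.56 and 7.01 in sh4, against 5.70 and 6.33 in Scr, the first of which is under the bacterial controls of 6.00 (at least 1.54-fold higher, adjusted p = 0.0422). SBF2, the sense partner, did not pass (-0.17, adjusted p = 0.523), and the second probe set of SBF2-AS1 differed by 0.33. CARD8-AS1, antisense to an inflammasome sensor gene, was at 7.56 and 8.14 in sh4, against 8.25 and 9.26 in Scr (-0.90 ± 0.15, adjusted p = 0.043). PC3-EMT14 stood above PC3-EMT1 in both conditions, so that its sh4 value lay just under the Scr value of PC3-EMT1. LINC00342 was at 8.80 and 8.88 in sh4, against 9.45 and 9.96 in Scr (-0.86 ± 0.14, adjusted p = 0.0404), with differences of -0.70 and -0.59 on its other 2 probe sets. LINC00294 was at 8.43 and 8.27 in sh4, against 9.16 and 8.97 in Scr (-0.72 ± 0.12, adjusted p = 0.0458). All 7 calls rest on the 6-array fit, in which the untransduced arrays of both lines add to the estimate of the spread. With the 4 transduced arrays alone 0 members passed, beside 0 of all 16661 genes. The calls were lost as well without the sh4 array of PC3-EMT14, which leaves a single sh4 array.

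Members that distinguished EMT lines from PC3-Epi can be set beside their response to sh4, since these differences come from separate arrays, although untransduced arrays of PC3-EMT1 and PC3-EMT14 enter the spread of both fits. Of the 7 members called with sh4, 5 (71.4%, and 5.68% of the 88 called in EMT lines) were also called in EMT lines against PC3-Epi, each in the opposite direction. Over all genes tested, 130 of the 196 called with sh4 (66.3%, and 3.72% of the 3496 called in EMT lines) were called in both, and 123 of them in opposite directions. SPINT1-AS1, LINC01111 and SBF2-AS1 were lower in EMT lines (by 1.85, 1.25 and 1.07 on the log2 scale) and higher with sh4, while SSTR5-AS1 and CARD8-AS1 were higher in EMT lines (by 3.28 and 0.80) and lower with sh4. All 9 of the 2-fold rises had a lower value in sh4 than in Scr on average, beside 83.0% of the 352 genes of any kind that rose by the same rule. Of the 10 falls, 7 had a higher value in sh4, beside 68.4% of 572. LINC00261 was at 9.79 and 10.91 in sh4, against 10.10 and 11.50 in Scr (-0.45 ± 0.16, adjusted p = 0.205), and FOXA2 at 9.68 and 10.46 in sh4, against 9.09 and 9.99 in Scr (0.53 ± 0.17, adjusted p = 0.164). Neither passed. LINC00326 came close to the threshold, at 10.38 and 10.74 in sh4, against 10.92 and 11.55 in Scr (-0.68 ± 0.12, adjusted p = 0.0572). EPHA5, under the bacterial controls in 1 sh4 array, was at least 1.74-fold lower with sh4 (adjusted p = 0.0422), whereas EPHA5-AS1 differed by -0.35 (adjusted p = 0.194).

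The mesenchymal lines also differed from each other. In PC3-EMT14 against PC3-EMT1, compared within the untransduced, the sh4 and the Scr arrays, 9 members were higher and 1 lower. These are 3.40%, beside 1.82% of 16662 genes tested (1.52% higher and 0.3% lower), which again include dimmer genes. With a filter at log2 7, 12 of 192 members passed, beside 411 of 11153 genes. SLC26A5-AS1, antisense to the gene of prestin, was the only one at least 2-fold apart in every pair, 0.34% of members beside 0.198% of all genes, of which 0.168% were higher and 0.03% lower. It was at 5.88, 9.01 and 10.20 in the untransduced, sh4 and Scr arrays of PC3-EMT14, against 4.30, 7.97 and 8.04 in those of PC3-EMT1 (at least 2.83-fold higher, adjusted p = 0.0148). The untransduced PC3-EMT1 array and PC3-Epi (4.34) both lay under the bacterial controls, and PC3-EMT12 was at 6.68. A second probe set gave 1.61.

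LINC00261 was higher in PC3-EMT14 in all 3 pairs as well, by 1.10 ± 0.13 on average (adjusted p = 0.015). SH3PXD2A-AS1, at the gene of an invadopodium scaffold, was at 7.57, 7.73 and 8.40 in the untransduced, sh4 and Scr arrays of PC3-EMT14, against 6.64, 6.61 and 6.87 in those of PC3-EMT1 (1.19 ± 0.13, adjusted p = 0.0106). The other members higher in PC3-EMT14 were PSMA3-AS1, CARD8-AS1, LINC01111 and LINC01711, by 0.89, 0.70, 0.64 and 0.57, and LINC01607 and LINC00992. LINC01607 lay under the bacterial controls on all 3 arrays of PC3-EMT1 (at least 1.64-fold higher in PC3-EMT14), and LINC00992 on all 3 arrays of PC3-EMT1 and 2 of the 3 of PC3-EMT14, so that no difference is given for it. PGM5-AS1, lower by 0.74 ± 0.12 (adjusted p = 0.0369), was the exception. These pairs come from 1 derivation of each line, and with the 4 transduced arrays alone 0 members passed, beside 0 of all 16661 genes. Members beyond SLC26A5-AS1 were named here after their values were seen.

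**Figure D5:**
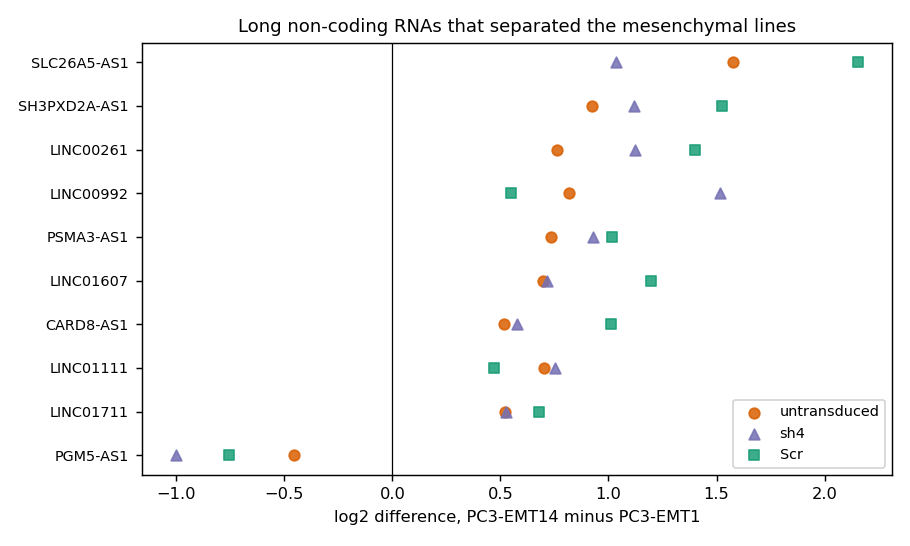
Log2 difference, PC3-EMT14 minus PC3-EMT1 (horizontal axis), of the 10 members past the test, with 1 symbol each for the untransduced, sh4 and Scr pairs. The 3 pairs lie on the same side of 0 for every member. The PC3-EMT1 values of LINC00992 and LINC01607 lie under the bacterial controls, and SLC26A5-AS1 is farthest from 0 at an average of 1.59.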

How the data were processed

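Total RNA of 8 cell samples was hybridised to Affymetrix arrays with 54675 probe sets. The deposited values are log2 expression, which the authors computed by RMA (affy package), and nothing was rescaled. The number of arrays limits the precision.

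Of the probe sets, 41091 carried 1 gene symbol, and each gene was represented by the one with the highest mean over 8 arrays. Symbols were updated by Entrez number. A gene was tested where 1 array of its comparison reached log2 5. Tests used limma 3.58.1 (R 4.3.3) with eBayes, and p-values were adjusted by Benjamini-Hochberg over every gene tested (threshold 0.05). EMT and PC3-Epi were compared in a group fit of the 4 untransduced arrays (2 residual degrees of freedom, prior 3.87). For sh4 against Scr and PC3-EMT14 against PC3-EMT1, 6 arrays were fitted with group and line (2 residual degrees of freedom, prior 5.38). There the mismatch of lines between the 2 sets of arrays enters the error. The replicate number is the number of the cell line and so pairs the arrays of 1 line. Deviations of same-line arrays from their group means correlated at 0.48 (Scr with sh4), 0.46 (Scr with EMT) and 0.36 (sh4 with EMT). The script was tested on simulated data.

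Members were named by rule: the largest changes past the 2-fold rule or, for sh4, the test, the 6 brightest, and a list of RNAs known from tumours. Members and lists were chosen with earlier results of these data known. Alternatives changed the probe set, filter, scaling, eBayes settings, fold limit, blocks and arrays. Markers and genes with several symbols or none were otherwise left out.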

Additional observations from a re-analysis of the deposited data

How the results depend on the processing

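None of the named members changed direction under an alternative, and the 19 members 2-fold apart between EMT lines and PC3-Epi stayed past the test in every alternative that tested them. The 88 called members became 35 with a filter at log2 7, where 85 members remained, beside 2872 of 8670 genes. With 1 EMT line left out they became between 45 and 94, lowest without PC3-EMT14, while the genes called became between 1841 and 4411, also lowest without PC3-EMT14. PC3-Epi, a single array, could not be left out. The 19 members of the 2-fold rule became 8 with 32 added to the linear values, 56 at a 1.5-fold limit and 9 at a 3-fold limit.

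The pairing by line matters for sh4 against Scr. Without the replicate block 0 members passed instead of 7, beside 12 of 16661 genes. With the 4 transduced arrays only and the replicate block 0 members passed, beside 0 of 16661 genes, with 1 residual degree of freedom. The 7 became 3 with the mean of probe sets, 11 with a filter at log2 7 or with a trend in eBayes, 4 with quantile normalization within each set or with 32 added, and between 0 and 14 with 1 array left out. Without the Scr or the sh4 array of PC3-EMT14 it was 4 or 0, and without the Scr or the sh4 array of PC3-EMT1 it was 14 or 6, and of the 7 calls 3, 0, 5 and 3 remained. The 1 member of the 2-fold rule became 0 with 32 added or at a 3-fold limit, 9 at a 1.5-fold limit, 2 with quantile normalization of all 8 arrays, an alternative chosen after seeing the data, and between 1 and 8 with 1 array left out, with 8 without either array of PC3-EMT1.

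For PC3-EMT14 against PC3-EMT1 the 10 called members became 5 with the mean of probe sets, 3 with 32 added and 4 with quantile normalization of all 8 arrays. They became 0 without the group block or with the 4 transduced arrays only, where 0 of all genes passed as well. With 1 pair left out they became between 0 and 8, with 0 without the untransduced pair and 5 without the sh4 pair. The 1 member of the 2-fold rule became 0 with the mean of probe sets, quantile normalization within each set, 32 added or a 3-fold limit, 5 at a 1.5-fold limit, 4 with the 4 transduced arrays only, and between 1 and 4 with 1 pair left out, with 4 without the untransduced pair. The causes were not tested. Signals near the bacterial controls limit what the dim members can show.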

Other observations

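The brighter members were called higher more often than the dimmer ones. Of the 85 members that reached log2 7 on an untransduced array, 26 were higher and 8 lower in EMT lines than in PC3-Epi (30.6% and 9.41%), beside 14.8% and 16.3% of the 8670 genes of that level. Of the 209 dimmer members 27 were higher and 27 lower (12.9% each), beside 11.6% and 13.1% of 3251 genes. The split by level was chosen after the values were seen and was not tested.

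MNX1-AS1 was among the 8 members with an SD above 0.5 over the EMT lines (2.72%, beside 1.85% of all genes tested). It was at 7.23, 6.09 and 6.93 in the EMT lines (PC3-EMT1, PC3-EMT12, PC3-EMT14), against 6.77 in PC3-Epi, which lay between the lines. Among the 27 RNAs tested outside the naming rule, 2 were higher in PC3-EMT14 than in PC3-EMT1. MIR100HG was higher by 0.71 (limma adjusted p = 0.037), and CRNDE lay under the brightest bacterial control on 5 of the 6 arrays, so that no difference is given for it.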
